A study of Homo sapiens with 12 samples.

Results

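CDK8 is a kinase of the Mediator complex, and its knockdown was compared with control cells by ChIP-seq of H3K27ac in the breast cancer line MDA-MB-231 (written MDA-MB231 in the labels). The libraries were chosen by title: 3 of the CDK8KD group, infected with lentivirus carrying a CDK8 shRNA, and 3 of the Control group, infected with EV-control lentivirus. They are 6 of 12 samples in the series, paired by replicate number. The 3 CDK19KD libraries, from cells with a CDK19 shRNA, served as a side value, and the 3 Input samples were not analysed here. All cells were grown for 96 h after infection, and 250000 to 500000 unfixed cells went into a ChIP. The labels give neither the number of shRNAs per gene, nor whether a culture was 1 clone, nor whether replicates were separate cultures, so p-values measure the spread between these libraries, which may be technical. The lists hold no RNA or protein level, and the knockdown was therefore not checked.

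CDK8 binds cyclin C and, with MED12 and MED13, forms the kinase module of Mediator, the complex that links transcription factors to RNA polymerase II. The module docks reversibly onto Mediator, and CDK8 and its close relative CDK19 occupy the same place in it. H3K27ac is acetylation of a lysine in the histone H3 tail that marks promoters and enhancers in use, and long unbroken stretches of it often lie over strongly transcribed genes and enhancer clusters. A broad peak is a stretch that the authors' caller joined into a single interval, so that peak number, peak width and covered length can move separately. In a bulk ChIP, acetylation in fewer cells and less acetylation per cell cannot be told apart.

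Over all deposited peaks, the CDK8KD lists held fewer and broader peaks than the Control lists of the same replicate number, while total covered length did not move in one direction. Among peaks with a deposited −log10 q of at least 5 the mean difference in number was reversed, with 27055, 14977 and 22176 peaks in Control and 24974, 19673 and 24541 in CDK8KD. On chromosomes 1 to 22 and X, replicates 1, 2 and 3 had 65579, 87530 and 84856 peaks in Control, and 62669, 74761 and 73527 in CDK8KD. Median peak width was 2769, 2040 and 1969 bp in Control and 3163, 2332 and 2424 bp in CDK8KD. CDK8KD had fewer peaks and a larger median width in each of the 3 pairs, but the groups overlapped in both measures. Covered length was 262.91, 312.764 and 315.658 Mb in Control, and 292.068, 295.667 and 318.309 Mb in CDK8KD. Means were 297 ± 29.7 Mb (SD, n = 3) and 302 ± 14.2 Mb (SD, n = 3), a difference within the spread of either group.

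Peak strength differed between libraries as well and was not even between the groups. The share of peaks with a deposited −log10 q of at least 5 was 41.3%, 17.1% and 26.1% in Control and 39.9%, 26.3% and 33.4% in CDK8KD. It was higher in CDK8KD in pairs 2 and 3 and lower in pair 1. Its part in the results that follow was not tested. Read depth is unknown, so no value carries a counting interval.

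Acetylated stretches common to all libraries had a greater mean length in each CDK8KD library than in any Control library. Merging the peaks of the 6 lists gave 115548 regions, of which 36122 were held by all 6 libraries, 46670 by 1 library only, and the rest by 2 to 5. In the regions held by all 6, termed shared, the geometric mean of covered length was 4621, 4914 and 4425 bp in Control and 5121, 5019 and 5073 bp in CDK8KD. The groups did not overlap. The mean log2 difference was 0.13, with p = 0.1 in the exact permutation test over 20 splits and p = 0.25 in the exact sign-flip test over 3 pairs (both two-sided), each the smallest p the design allows. The widest peak in a shared region had a geometric mean of 4242, 4436 and 4018 bp in Control and 4811, 4556 and 4703 bp in CDK8KD. These groups did not overlap either, with a mean log2 difference of 0.15 and the same exact p-values.

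The gain was uneven between pairs. Summed over shared regions, CDK8KD covered 26.0, 4.17 and 18.03 Mb more than Control in pairs 1, 2 and 3. The share of shared regions with more covered length in CDK8KD was 63.9%, 51.1% and 62.5%, so that pair 2 was close to an even split. Outside shared regions the pairs differed. Regions held by both groups in 2 to 5 libraries had differences of 3.16, -6.52 and -4.20 Mb, CDK8KD minus Control. Regions held by 1 or 2 libraries of a single group covered 3.87, 19.8 and 18.97 Mb in Control and 3.42, 4.86 and 7.06 Mb in CDK8KD. Control replicates 2 and 3 carried most of that sparsely held length.

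Within shared regions the net gain lay partly at the edges and partly in gaps. Beyond the outer ends of the partner library's peaks, CDK8KD had a net 16.9, 1.36 and 13.6 Mb, and between those ends a net 9.05, 2.81 and 4.38 Mb. In pairs 1 and 3 most of the net gain was outward extension, and in pair 2 most of it was filling. Shared regions were a single peak in 79.3%, 74.7% and 74.8% of cases in Control and in 83.5%, 74.4% and 79.2% in CDK8KD. The single-peak share was higher in CDK8KD in pairs 1 and 3 and slightly lower in pair 2.

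The share of shared regions that were higher in all 3 pairs was largest in the longest class. Shared regions were divided by their mean covered length over the 6 libraries. Covered length was higher in all 3 pairs in 18.6% of 318 regions under 1 kb, 29.8% of 15050 regions of 2 to 5 kb, and 41.2% of 2023 regions of 20 kb or more. The median log2 difference did not follow breadth in order: from the shortest to the longest of 6 classes it was 0.15, 0.21, 0.12, 0.06, 0.09 and 0.09. The 3 pairs came closest to each other in the longest class, with median log2 differences of 0.11, 0.08 and 0.05. Over all shared regions, 30.6% were higher and 14.4% lower in all 3 pairs, while 15.6% had every CDK8KD value above every Control value and 4.37% the reverse.

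**Figure D1:**
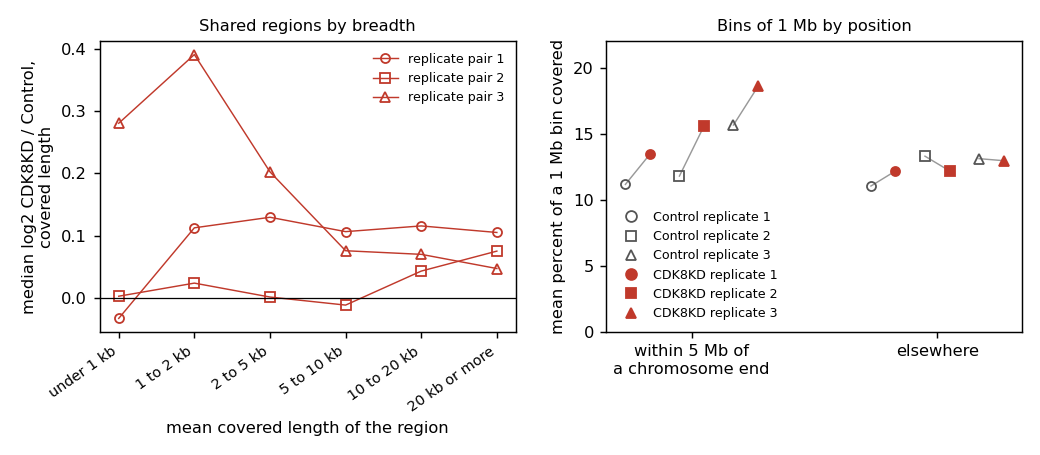
Left: median log2 ratio of covered length, CDK8KD over Control, in shared regions by mean covered length, 1 line per replicate pair; the pairs spread from -0.03 to 0.28 under 1 kb and from 0.05 to 0.11 at 20 kb or more. Right: mean percent of a 1 Mb bin covered in each library, for bins within 5 Mb of a chromosome end and for the other bins; lines join replicate pairs, and at the ends all 3 run upward, from 11.2, 11.8 and 15.7% to 13.5, 15.6 and 18.6%.

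Single regions were tested with limma on log2 covered length, with the replicate number as a block and Benjamini-Hochberg adjustment over all 36122 shared regions (threshold 0.05). Covered length was higher in CDK8KD in 271 regions (0.75%) and lower in 58 (0.161%). The lowest adjusted p by limma was 0.0397, so every call lay close to the threshold. At an unadjusted p under 0.05, 5401 regions were higher and 2179 lower. Without the block limma called 0 regions in either direction (3743 and 1024 unadjusted), and likewise 0 with each library's median removed (3573 and 3585 unadjusted). That centring moved the median of all shared regions from 0.10 to -0.01 on the log2 scale. Leaving out any 1 of the 6 libraries also left 0 calls in both directions, with 3562 to 5568 regions higher and 1377 to 2624 lower at an unadjusted p under 0.05. The width of the widest peak gave 0 calls in either direction, with 4659 higher and 1553 lower at an unadjusted p under 0.05 and a lowest adjusted p of 0.0897 by limma.

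Over all shared regions the median covered length was 4805 bp. In the 271 higher regions the median covered length was 5299, 4552 and 5295 bp in Control and 12126, 11282 and 14280 bp in CDK8KD. The groups did not overlap in 265 of them. In the 58 lower regions the medians were 7737, 14425.5 and 12262 bp in Control and 2915, 5342 and 4582 bp in CDK8KD, and the groups did not overlap in 37. Control replicate 1 lay below the other two Control libraries in this set. In the CDK19KD lists, which share the same controls, the medians were 6831, 6215 and 7400 bp in the first set and 7401.5, 8169 and 5641 bp in the second.

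The 10 called regions with the largest gains started from short peaks in all Control libraries, a feature that ranking by log2 ratio favours. Gene names given to regions rest on approximate hg19 positions of well-known genes, written from general knowledge after the regions were known. They were checked against a GRCh38.p14 gene table for chromosome, strand, length and order, and no hg19 annotation was used. The first region, chr2:242726680-242734760, lies at GAL3ST2, which encodes a galactose sulfotransferase. Peaks covered 283, 272 and 834 bp of it in Control and 4343, 5269 and 8081 bp in CDK8KD (log2 difference 3.83 ± 0.40, SE, limma adjusted p = 0.0397). The groups were far apart, and the CDK19KD lists covered 1522, 1767 and 841 bp.

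The second region, chr11:130424209-130442322, was the longest of the 10, and no gene was placed in it. It was covered over 2078, 1429 and 616 bp in Control and 17712, 9874 and 15695 bp in CDK8KD (log2 difference 3.52 ± 0.38, SE, limma adjusted p = 0.0397). Another, chr3:127369409-127376221 at PODXL2, a gene for a sialomucin of the cell surface, went from 824, 693 and 566 bp to 5912, 5170 and 6268 bp. The region chr5:171862175-171872854 lies at SH3PXD2B, which encodes a scaffold of podosomes, the actin-rich structures that degrade matrix, and went from 1205, 439 and 1486 bp to 8038, 5461 and 10252 bp.

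The other gains included chr17:9630009-9635174 at USP43, a deubiquitinase gene, with 620, 315 and 939 bp in Control and 4930, 3985 and 4645 bp in CDK8KD. They also included chr8:142376432-142381784 at GPR20, a gene for an orphan receptor, with 286, 418 and 947 bp in Control and 3381, 2972 and 5353 bp in CDK8KD. The remaining 4 regions, with no gene placed in them, were chr9:111545221-111551565, chr6:135142082-135149067, chr2:228516208-228524438 and chr1:22570877-22580918. Their log2 differences ran from 2.98 to 3.30. In all 10 regions every CDK8KD library exceeded every Control library, which selection of called regions by size of difference favours. A single peak made up the region in each Control library in 9 of the 10 cases, the exception being SH3PXD2B.

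The 10 largest losses went the other way. Genes were placed at 9 of them and at 5 of the 10 gains, a count with no background, since positions were written for these regions only. The first, chr4:4428044-4434343 at STX18, which encodes a syntaxin of the endoplasmic reticulum, was covered over 3991, 5200 and 5806 bp in Control and 628, 813 and 250 bp in CDK8KD (log2 difference -3.29 ± 0.50, SE, limma adjusted p = 0.0492). At chr13:37594320-37607092 lies SUPT20H, a gene for a subunit of the SAGA histone acetyltransferase complex. Peaks there covered 3539, 12773 and 5972 bp in Control and 536, 1091 and 1216 bp in CDK8KD. The CDK19KD values at SUPT20H, 1311, 981 and 1042 bp, lay near the CDK8KD ones. At STX18 the CDK19KD lists covered 1268, 2015 and 1212 bp, below every Control value.

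At chr11:85673560-85689362, inside PICALM, a clathrin assembly gene, coverage went from 3389, 11568 and 15314 bp to 557, 2861 and 1167 bp. At chr6:17928181-17937031, inside KIF13A, a kinesin gene, it went from 5004, 8689 and 6905 bp to 933, 956 and 1266 bp. There the CDK19KD lists kept 6496, 3547 and 6416 bp. At chr3:152115299-152123987, inside MBNL1, whose product regulates splicing, it went from 5622, 8592 and 7411 bp to 1359, 1525 and 1259 bp. The other losses were at AGFG1, KLHL24, SOCS4 and PDLIM5 and at chr11:5305267-5314653, with log2 differences from -2.84 to -2.36. In all 10 the groups did not overlap, which the same selection favours. CDK19KD was below Control in every pair at STX18, SUPT20H, PICALM, KLHL24, SOCS4 and MBNL1. It was not below Control in every pair at AGFG1, KIF13A, PDLIM5 and chr11:5305267-5314653.

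**Figure D2:**
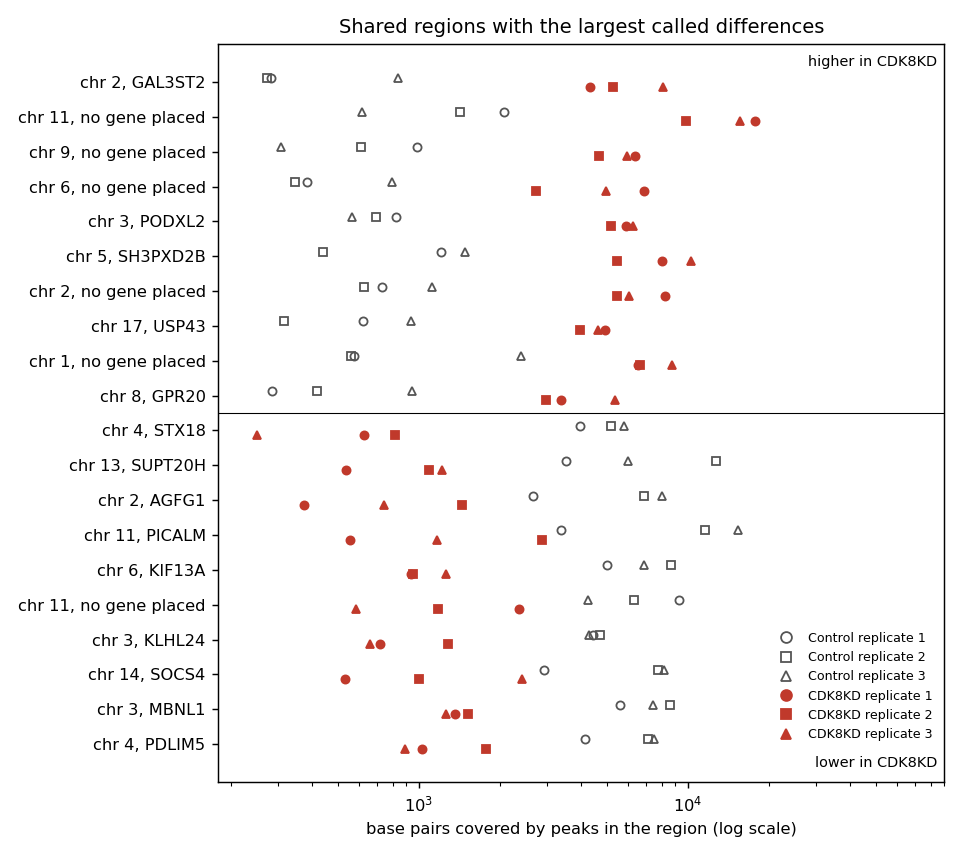
Base pairs covered by peaks (log axis) in the 10 shared regions with the largest called gain (top) and the 10 with the largest called loss (bottom); each symbol is 1 library, open for Control and filled for CDK8KD, with the symbol shape giving the replicate number. Control and CDK8KD values do not overlap in any of the 20 regions, which were selected for large called differences.

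Regions held by all 3 libraries of 1 group only were a small part of all merged regions. All 3 CDK8KD libraries and no Control library held 737 regions (0.638% of the 115548), and all 3 Control libraries and no CDK8KD library held 475 (0.411%). Only regions held by exactly 3 of the 6 libraries could qualify, and there were 7749 of these. The rest of the 7749 were split between the groups, 2861 with 2 CDK8KD libraries and 3676 with 2 Control libraries. Presence and absence in 3 against 3 lists was not tested. These regions were short and of modest strength: the median width was 2450 bp for CDK8KD only and 2401 bp for Control only, and their median strength lay between the 17th and 36th percentiles of their own lists by deposited −log10 p. About as many lay within 10 kb of a shared region as farther away, 50.7% and 44.4%. Of the regions held by CDK8KD only, 298 were in none of the CDK19KD lists and 106 in all 3, and of those held by Control only, 119 were in none and 116 in all 3.

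Among regions held by CDK8KD only, the one with the largest mean covered length was chr1:226827155-226835628 at ITPKB, which encodes an inositol trisphosphate kinase, with 2876, 4215 and 8474 bp. Another 2 lay close together on chromosome 17, chr17:91551-99341 at RPH3AL with 828, 7077 and 7639 bp and chr17:238659-247924 with 2375, 2570 and 9266 bp. Neither held a CDK19KD peak. The remaining pair were chr22:28197320-28204248 near the 5′ end of MN1, a transcriptional coregulator gene, with 5733, 2510 and 5791 bp, and chr16:11009790-11015887 with 4062, 3368 and 5892 bp. Replicate 3 had the largest value in each of these 5 regions.

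The leading regions held by Control only that are described here fell inside placed genes. At chr6:56353752-56361407, inside DST, the gene of a large cytoskeletal linker, Control covered 3169, 7656 and 4962 bp. At chr4:157772807-157785694, inside PDGFC, a growth factor gene, the values were 717, 11493 and 1538 bp. At chr17:28486156-28494280, inside NSRP1, a splicing regulator gene, they were 305, 8125 and 3781 bp. At chr1:36436183-36442167, inside AGO3, an Argonaute gene, they were 3641, 4172 and 4065 bp. Of these regions, only the one in AGO3 was covered evenly by the 3 Control libraries. At PDGFC and NSRP1 Control replicate 1 had the shortest coverage.

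Fixed windows of 10 kb place differences without depending on how peaks merge. Of 78055 windows, limma on all 9 libraries with the block called 313 higher in CDK8KD (0.401%) and 26 lower (0.0333%), with a lowest adjusted p of 0.0389. Scaling each library by its total covered length gave 900 higher and 238 lower. Calls were lost when 1 library was left out, whichever it was, and when only the 6 libraries of the comparison entered the fit (0 in both directions, 7991 higher and 3394 lower at an unadjusted p under 0.05 in the latter). Without the block there were 492 and 67 calls, of which 237 were among the 339 calls with it.

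Most called windows stood alone: 299 of the 313 gains and all 26 losses were single, and the other gains formed 7 runs of 2 windows, of which the 5 with the largest difference are given. The run with the largest difference, chr1:12190001-12210000 at TNFRSF8, the gene of the receptor CD30, was covered over 48.5, 43.3 and 47.8% in Control and fully (100%) in each CDK8KD library. The run chr12:6190001-6210000 inside VWF, the gene of von Willebrand factor, went from 47.8, 36.5 and 46.0% to 91.5, 92.7 and 91.6%. The CDK19KD values there were 78.3, 78.0 and 83.5%, closer to CDK8KD than to Control. The run chr2:20630001-20650000 at RHOB, a small GTPase gene, went from 65.9, 51.0 and 47.9% to 100, 100 and 94.7%. The other 2 of the 5 were at USHBP1, from 38.9, 30.3 and 48.3% to 78.8, 67.4 and 86.2%, and at GRAP2, an adaptor gene of immune receptors, from 35.5, 27.8 and 39.8% to 71.4, 66.2 and 77.8%. CDK19KD was above Control in each pair at TNFRSF8, VWF, RHOB and USHBP1, and below it in each pair at GRAP2. At RHOB the CDK19KD values were 83.97, 69.02 and 66.15%.

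Among lost windows the largest difference was chrX:123160001-123170000 inside STAG2, which encodes a cohesin subunit: 92.3, 80.7 and 48.6% in Control against 31.6, 13.2 and 2.50% in CDK8KD. Next came chr14:35240001-35250000 inside BAZ1A, a chromatin remodelling gene, with 74.5, 75.4 and 64.2% against 27.1, 22.2 and 7.60%. The window chr7:121770001-121780000 inside AASS, a gene of lysine breakdown, had 89.9, 94.6 and 90.7% against 48.9, 48.2 and 38.3%. The others were in AK5 and KCNQ5, with differences of -43.9 and -38.4 percentage points. No Control library overlapped a CDK8KD library in any of these 5 windows, which were selected for large called differences. CDK19KD was below Control in each pair at STAG2, BAZ1A, AASS and AK5, and above it in each pair at KCNQ5. At AASS the CDK19KD values were 51.7, 63.9 and 55.8%.

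Bins of 1 Mb show differences over longer stretches. Of 2364 bins, limma called 128 higher (5.41%) and 29 lower (1.23%), with 372 and 272 at an unadjusted p under 0.05. Scaling by total covered length turned this into 193 higher and 207 lower, so the balance of directions depends on it. Without the block there were 0 calls (179 higher and 140 lower unadjusted). Without CDK8KD replicate 3 there were also 0. Leaving out another library gave 23 (without Control replicate 3) to 179 higher (without Control replicate 1), and 1 to 353 lower. The 353 came without Control replicate 1, and only 1 lower bin was called without Control replicate 2, Control replicate 3 or CDK8KD replicate 2. Without Control replicate 2 and CDK8KD replicate 2, 40 and 49 bins were called higher.

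Called gains were more frequent near chromosome ends. The division at 5 Mb from the first or last position was chosen after the called bins had been seen, so its counts are a description. Of 194 bins near an end, 55 (28.4%) were called higher and 0 lower, and of the other 2170 bins, 73 (3.36%) were higher and 29 lower. The mean covered share near ends was 11.2, 11.8 and 15.7% in Control and 13.5, 15.6 and 18.6% in CDK8KD. CDK8KD was higher there in each pair, by 2.29, 3.79 and 2.93 percentage points, although the groups overlapped. Elsewhere the pair differences were 1.14, -1.11 and -0.15 percentage points.

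The bin with the largest gain was the first Mb of chromosome 17, which holds the neighbouring pair of regions held by CDK8KD only. It was covered over 13.7, 16.3 and 30.1% in Control and 27.4, 39.6 and 56.8% in CDK8KD (difference 21.2 ± 3.29 percentage points, SE, limma adjusted p = 0.00939). The first Mb of chromosome 7 went from 14.5, 13.96 and 19.8% to 21.05, 29.4 and 40.0%. In both bins the CDK19KD libraries, at 14.4, 18.3 and 20.3% and 12.9, 15.3 and 19.2%, lay within or below the range of Control. The others were chr17:80000001-81000000, chr11:130000001-131000000, which contains the second of the named gains, and chr9:132000001-133000000.

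The bin with the largest loss, chr6:56000001-57000000, contains the DST region and went from 30.4, 48.1 and 40.6% to 27.8, 28.2 and 26.8% (difference -12.1 ± 2.99 percentage points, SE, limma adjusted p = 0.0346). The next, chr11:108000001-109000000, went from 15.7, 31.7 and 26.6% to 13.8, 16.8 and 13.7%. The remaining 3 were chr1:78000001-79000000, chr2:32000001-33000000 and chr1:243000001-244000000. The groups did not overlap in 3 of the 5 bins. In each of the 5, Control replicate 1 was close to the CDK8KD libraries, and Control replicates 2 and 3 made most of the difference. The CDK19KD libraries had 29.9, 34.5 and 24.7% in the chromosome 6 bin and 14.2, 20.3 and 12.6% in the chromosome 11 bin. In each of the 5, CDK19KD replicates 2 and 3 were below Control of the same number. CDK19KD replicate 1 was above Control replicate 1 only in chr1:78000001-79000000 and chr2:32000001-33000000.

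By chromosome, the share of a library's covered length was higher in CDK8KD in all 3 pairs on 7 of 23 chromosomes and lower in all 3 on 7. Chromosome 22 had the highest mean log2 difference in share, 0.33, followed by chromosomes 19 (0.25) and 16 (0.19), and chromosome 4 had the lowest, -0.19. These are values with no test. The short chromosomes 16, 17, 19, 20, 21 and 22, grouped after these values were seen, held 14.6, 12.97 and 17.1% of covered length in Control and 15.1, 17.2 and 18.5% in CDK8KD. They held 49 of the 128 higher bins and 1 of the 29 lower ones among 302 of the 2364 bins. They also held 169 of the 737 regions of CDK8KD only, 33 of the 475 of Control only, 80 of the 271 shared regions called higher and 3 of the 58 called lower, against 15.7% of all shared regions and 14.1% of all merged regions. No test of these differences was run. Pair 2 differed most on these chromosomes, where Control replicate 2 had the lowest share of any of the 6 libraries.

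**Figure D3:**
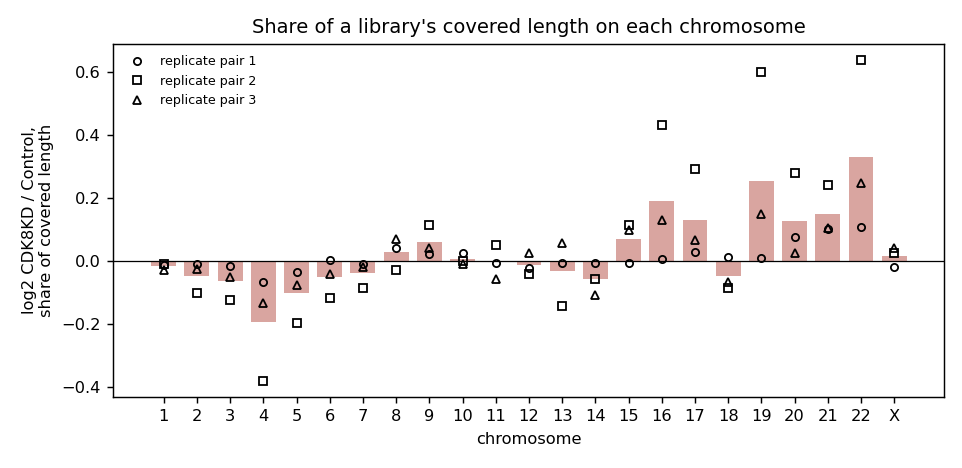
Log2 ratio of CDK8KD to Control in the share of a library's covered length that lies on each chromosome; bars are means of 3 replicate pairs and symbols the single pairs. Chromosomes 16, 17, 19, 20, 21 and 22 lie above 0 in all 3 pairs, and pair 2 is the farthest out on each of them.

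Genes of lists on the kinase module, signalling and cell identity were described by the percent of their span, with 10 kb on each side, covered by peaks. Of 83 genes placed on hg19, 80 kept a position that matched the GRCh38.p14 table, and GATA3, MYC and NEUROD1 did not. Covered share was higher in CDK8KD in all 3 pairs at 33 of the 80 and lower at 11. Among all windows of 10 kb the shares were 23.9% and 13.1%, and the median log2 ratio was 0.08 in the 55695 windows covered in all 6 libraries, against 0.14 for the listed genes covered in all 6. With shares scaled by total covered length, 20 genes were higher and 12 lower, and without pairing, 19 genes had every CDK8KD value above every Control value and 4 the reverse. Among windows the corresponding shares were 20.7% and 15.5% with scaling, and 12.8% and 4.5% for groups that did not overlap. Every gene span with its flanks is longer than a 10 kb window, so the windows are not a size-matched background for the genes.

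The Mediator kinase module itself was the list with the lowest median log2 ratio, -0.39. Of its 7 genes, 4 were lower in all 3 pairs (CDK19, CCNC, MED13 and MED13L) and 0 higher, and with scaled shares 5 were lower and 0 higher. CCNC, which encodes cyclin C, was covered over 20.8, 41.6 and 21.6% in Control and 12.4, 10.5 and 6.28% in CDK8KD. MED13, whose product joins the module to Mediator, had 19.1, 49.0 and 68.1% in Control and 7.31, 19.1 and 32.6% in CDK8KD. The groups did not overlap at CCNC and overlapped at MED13, where CDK8KD was lower in each pair. MED13 held a called shared region, chr17:60099047-60145227, with 20783, 32137 and 45339 bp in Control and 8385, 13545 and 23226 bp in CDK8KD (log2 difference -1.17 ± 0.11, SE, limma adjusted p = 0.0397). Its CDK19KD values were 19992, 23465 and 17249 bp. MED12 went the other way in pairs 2 and 3, with 5.86, 4.43 and 4.31% against 5.47, 15.2 and 9.24%. At CCNC the CDK19KD libraries had 20.01, 12.39 and 9.99%, at CDK19 7.02, 5.99 and 6.33%, and at MED13L 12.96, 15.62 and 9.39%. Each of these values lay below the Control library of the same replicate number. At MED13 the CDK19KD values, 20.07, 28.24 and 18.25%, were below Control in pairs 2 and 3 only. At MED12 they were 9.29, 8.24 and 16.49%, above Control in each pair. Whether the pattern belongs to CDK8 knockdown alone was not tested.

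The targeted gene and its relative stayed marked at their starts. CDK8 was covered over 2.24, 3.56 and 1.61% in Control and 2.26, 2.32 and 1.47% in CDK8KD, and CDK19 over 7.72, 7.51 and 8.12% and 6.93, 5.99 and 5.09%. Peaks overlapped the start of both genes in all 6 libraries. The start of RHOB was likewise covered in all 6 libraries, and a called run of windows lay over the gene. The RefSeq promoters of these genes (GRCh38.p14, 250 bases before to 50 after the start, written on the gene's own strand) are shown because peaks of this comparison bear on them. CDK8 lies on chromosome 13 on the + strand, CDK19 on chromosome 6 on the - strand, and RHOB on chromosome 2 on the + strand. Capitals mark GC boxes (GGGCGG) and CCAAT boxes (CCAAT) on either strand.

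CDK8: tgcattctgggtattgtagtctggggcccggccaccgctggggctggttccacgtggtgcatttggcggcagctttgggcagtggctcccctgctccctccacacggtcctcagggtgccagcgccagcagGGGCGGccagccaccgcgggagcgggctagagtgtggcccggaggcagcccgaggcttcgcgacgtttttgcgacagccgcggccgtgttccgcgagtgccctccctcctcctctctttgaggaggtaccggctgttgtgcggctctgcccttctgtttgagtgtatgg

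CDK19: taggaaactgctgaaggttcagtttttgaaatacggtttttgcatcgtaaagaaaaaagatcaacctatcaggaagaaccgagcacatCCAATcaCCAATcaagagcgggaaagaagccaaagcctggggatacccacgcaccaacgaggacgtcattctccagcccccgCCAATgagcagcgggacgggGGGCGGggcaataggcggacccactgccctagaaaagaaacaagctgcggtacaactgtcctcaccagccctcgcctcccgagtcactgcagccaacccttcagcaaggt

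RHOB: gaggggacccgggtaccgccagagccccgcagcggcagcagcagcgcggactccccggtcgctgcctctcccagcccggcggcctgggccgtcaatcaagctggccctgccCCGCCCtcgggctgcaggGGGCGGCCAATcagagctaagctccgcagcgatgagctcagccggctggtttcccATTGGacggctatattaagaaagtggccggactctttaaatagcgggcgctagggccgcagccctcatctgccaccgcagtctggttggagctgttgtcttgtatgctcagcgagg

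CDK8 has 1 GC box and no CCAAT box, CDK19 has 1 GC box and 3 CCAAT boxes, and RHOB has 2 of each. The AP-1 site TGANTCA was in none of the 3. Of 27305 promoters of this length, 44.6% hold a GC box, 35.7% a CCAAT box and 7.76% an AP-1 site, on either strand. The matches describe these letters only.

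AP-1 genes, whose products form the FOS and JUN dimers that answer growth and stress signals, had their largest difference at FOSB. Of 9 AP-1 and immediate early genes, 5 were higher in all 3 pairs and 0 lower, with a median log2 ratio of 0.18. With scaled shares 2 were higher and 0 lower, near the share of all windows that were higher with scaling (20.7%). FOSB had 50.3, 38.1 and 53.2% in Control and 72.2, 89.1 and 87.1% in CDK8KD, without overlap. Its CDK19KD values were 46.6, 43.1 and 55.2%. A window touching its span or 10 kb flanks, chr19:45960001-45970000, was called. That window had 17.8, 7.80 and 34.5% in Control and 59.3, 80.6 and 86.6% in CDK8KD (difference 55.5 ± 6.70 percentage points, SE, limma adjusted p = 0.0497). The same window had 35.4, 37.9 and 51.5% in CDK19KD, above Control in each pair. Whether it reaches the gene itself was not resolved with approximate positions. FOS had 26.0, 27.5 and 22.98% against 31.8, 34.8 and 43.4%, and JUND 56.5, 50.7 and 57.6% against 62.0, 58.7 and 78.8%. Neither overlapped between the groups, and neither had a called window or region.

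Inflammatory and interferon genes were mixed. Of 10 NF-kB targets, 5 were higher in all 3 pairs and 1 lower (4 and 0 with scaled shares), with a median log2 ratio of 0.22. The chemokine gene CXCL8 had 33.5, 40.3 and 25.2% in Control and 55.8, 42.0 and 39.1% in CDK8KD, and CXCL1 25.8, 18.3 and 8.68% against 30.7, 28.1 and 13.8%. TNFAIP3, which encodes a brake on NF-kB signalling, had 31.5, 26.8 and 45.0% against 27.9, 25.8 and 18.9%. Of 8 interferon and STAT genes, 3 were higher and 1 lower, with and without scaling, and the median was 0.21. IRF9, part of the factor that responds to type I interferon, had 7.57, 5.21 and 25.3% against 10.9, 17.9 and 47.9%, and SOCS3, a feedback inhibitor of STAT signalling, had 49.1, 39.3 and 50.9% against 65.5, 66.1 and 64.8%. Of these 5 genes, only SOCS3 had groups that did not overlap, and none had a called window or region.

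Of 8 Wnt and TGF-beta targets, 4 were higher in all 3 pairs and 0 lower (3 and 0 with scaled shares), with a median log2 ratio of 0.15. AXIN2, a feedback inhibitor of Wnt signalling, had 6.76, 5.28 and 4.86% in Control and 9.34, 9.91 and 14.2% in CDK8KD, and TGFBI 56.0, 46.3 and 60.8% against 64.3, 71.4 and 70.5%. Both were without overlap. LEF1, a Wnt-responsive transcription factor gene, had 4.52, 4.11 and 0.96% against 3.57, 2.59 and 1.07%, and its groups overlapped. Of 8 hypoxia and glycolysis genes, 4 were higher and 1 lower (2 and 1 with scaled shares), with a median of 0.06. VEGFA, an angiogenic growth factor gene, had 31.7, 30.7 and 44.9% against 54.5, 58.3 and 63.4%, and the glycolytic gene PGK1 had 66.3, 63.8 and 72.6% against 50.1, 43.3 and 56.6%. HK2, the hexokinase gene, had 61.8, 67.5 and 76.1% against 72.3, 77.5 and 81.3%. VEGFA and PGK1 were apart in opposite directions, and the groups overlapped at HK2.

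Marker genes matched the labelled cell line in part. The starts of all 10 basal and mesenchymal genes were covered in all 6 libraries. Of these genes, 3 were higher in all 3 pairs and 3 lower (1 and 4 with scaled shares), with a median log2 ratio of 0.01. ZEB1, a repressor of epithelial genes, had 13.99, 47.4 and 17.98% against 14.5, 11.5 and 11.97%, a difference carried by Control replicate 2. FN1, the fibronectin gene, had 17.8, 17.4 and 31.7% against 17.6, 16.1 and 19.1%, and CAV2 70.1, 94.0 and 59.9% against 100, 86.7 and 74.3%. Starts of genes silent outside their own lineage were covered in all 6 libraries at 0 of 6 genes. The start of GFAP was covered in 2 Control and 3 CDK8KD libraries, however, and that of INS in 0 and 2. The span of INS with its flanks had 2.06, 0 and 0% in Control and 16.9, 28.6 and 26.3% in CDK8KD. ALB, MYOD1 and HBB had no coverage in any of the 6, while the span of GFAP with its flanks had 62.2, 59.6 and 67.1% in Control and 70.9, 79.5 and 96.4% in CDK8KD, and 3 of the 6 genes were higher in all 3 pairs (2 with scaled shares).

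Of 7 luminal and epithelial genes, 4 were higher in all 3 pairs by any amount and 0 lower (2 and 0 with scaled shares), with pair 1 of ESR1 level to 3 digits, and the list had a median log2 ratio of 0.37 over the 5 covered in all 6 libraries. The start was covered in all 6 libraries at 3 of them. CDH1, the E-cadherin gene, had 15.5, 9.31 and 16.7% in Control and 28.6, 26.2 and 31.1% in CDK8KD. Over the same span CDH1 had 24.2, 17.5 and 28.8% in CDK19KD, above Control in each pair. Its called region, chr16:68820964-68837685, had 9832, 7336 and 7949 bp against 16722, 12060 and 13614 bp (log2 difference 0.75 ± 0.11, SE, limma adjusted p = 0.0494), and 7555, 6314 and 8400 bp in CDK19KD. ESR1, the estrogen receptor gene, held a called region, chr6:152412953-152423674, with 4446, 3636 and 5019 bp against 10078, 9898 and 10231 bp (log2 difference 1.22 ± 0.16, SE, limma adjusted p = 0.0439). The groups did not overlap in either region. Over its whole span ESR1 was sparsely covered, at 4.67, 1.65 and 1.27% against 4.67, 2.80 and 3.10%. The start of ESR1 was covered in 2 Control libraries and 1 CDK8KD library, and that of CDH1 in 0 and 2. KRT18, a keratin gene, had 37.96, 34.4 and 46.4% against 44.2, 49.4 and 59.9%. The list was not raised throughout. EPCAM was lower in pairs 1 and 3 and higher in pair 2, with 18.67, 18.71 and 19.8% against 15.03, 21.48 and 16.29%. Of the 6 libraries, FOXA1 was covered only in Control replicate 1 (3.56%) and PGR in none, so neither entered the median of the list. Housekeeping genes served as a further reference: of 7, 2 were higher and 1 lower (1 and 1 with scaled shares), with a median of 0.13. The tubulin gene TUBA1B had 24.9, 18.9 and 26.1% against 30.0, 29.9 and 42.8%, without overlap. GAPDH, a glycolytic gene, had 76.4, 73.7 and 80.7% against 83.96, 83.4 and 90.3%, also without overlap, and PPIA, a cyclophilin gene, 26.9, 27.8 and 53.0% against 26.5, 41.0 and 48.1%.

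**Figure D4:**
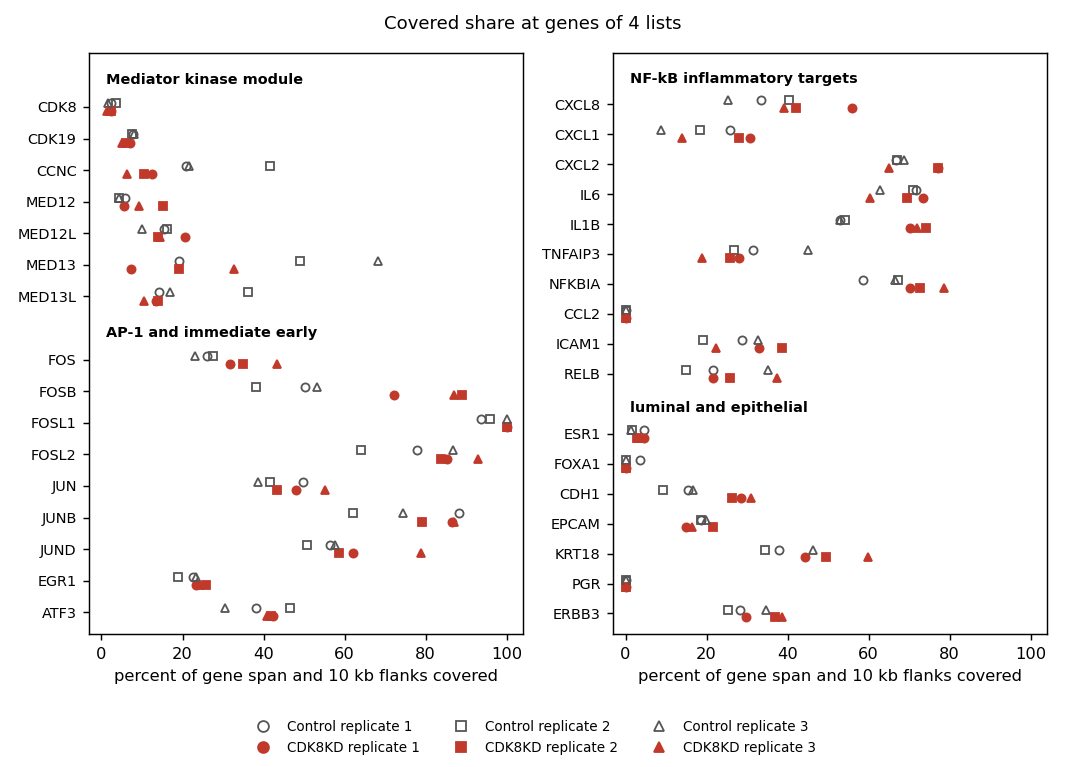
Percent of each gene's span and 10 kb flanks covered by peaks, for the Mediator kinase module, AP-1 and immediate early genes, NF-kB targets, and luminal and epithelial genes; each symbol is 1 library, open for Control and filled for CDK8KD. CCNC lies lower in all CDK8KD libraries, FOSB and CDH1 lie higher, and MED13 overlaps while CDK8KD is lower in each pair.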

How the data were processed

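H3K27ac was measured by native ChIP-seq. The authors deposited 1 broad peak list per library, with MACS2, deepTools and hg19 named in the submitters' processing notes; versions, aligner, control library and read depth are not given in the sources used here. Deposited columns hold positions, a score (not used), a fold enrichment (a linear ratio given by the authors' caller) and −log10 p and q values, used only within a list.

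Peaks on chromosomes 1 to 22 and X of the 6 lists were merged into regions, held by a library with at least 1 bp of overlap. Covered base pairs and the widest peak per region (log2, no pseudocount), and shares of 10 kb windows (mean at least 5%) and 1 Mb bins (at least 1%), were fitted with limma 3.58.1 (lmFit, eBayes with trend; R 4.3.3), with group and replicate number as terms, over 6 libraries for regions and 9 for windows and bins. The comparison is defined as paired, hence the block: after removal of group means, window shares of same-numbered Control and CDK8KD libraries correlated at 0.548, 0.138 and 0.611, above 0.1 in each pair, although CDK8KD replicate 1 correlated with Control replicate 2 at 0.203, more than CDK8KD replicate 2 did. Library measures were tested by exact sign flips and exact permutation.

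Named regions are the 10 largest called differences per direction with at least 2000 bp of mean coverage, the 5 largest per group among regions held by that group only, the 5 longest runs and the 5 largest bins per direction, and up to 3 genes per list by mean log2 ratio. For the widest peak none passed. The members and lists were chosen with earlier results of these data known. Gene positions on hg19 were written from general knowledge and are not printed. They were kept where chromosome, strand, order and length (within 25%, a tolerance set after the match was seen) matched the RefSeq table of GRCh38.p14: 120 of 124 were kept, 110 of them within 5% in length. Scripts were tested on simulated data. Some regions and genes that these rules select are not reported here.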

Additional observations from a re-analysis of the deposited data

How the results depend on the processing

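The main limit is that the calls per feature depend on the replicate block and on all 6 libraries. In shared regions the mean log2 difference in covered length ran from 0.08 to 0.18 when 1 library was left out. That of the widest peak ran from 0.10 to 0.21. These ranges hardly test the direction, since all 3 pairs were higher in both measures. The block cannot change a mean difference between groups of equal size. Read depth is unknown, and peak lists show only what passed each library's own threshold. For shared regions, covered length was called higher and lower in 271 and 58 regions, and in 0 and 0 with no replicate block, with centring, with a −log10 q of at least 5 (1270 and 432 unadjusted), with the 20000 strongest peaks (1477 and 431 unadjusted) and without any 1 library. Robust moderation gave 181 and 38, all among the main calls, peaks of at least 500 bp gave 411 and 97, and a fit on all 9 libraries, with regions held by all of them, gave 1310 and 245. The widest peak was called in 0 regions in the main fit, in 1 higher with no replicate block, in 549 higher and 72 lower with all 9 libraries, and in 0 without any 1 library.

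For windows, 313 and 26 calls became 492 and 67 with no replicate block, 900 and 238 with scaled shares, 100 and 8 with a −log10 q of at least 5, 316 and 70 with the strongest peaks, and 0 and 0 with 6 libraries only, with no minimum share (11394 and 6206 unadjusted) and without any 1 library. For bins, 128 and 29 became 0 and 0 with no replicate block, 193 and 207 with scaled shares, 299 and 6 with a −log10 q of at least 5, and 195 and 18 with the strongest peaks. Leaving out 1 library gave 0 to 179 and 0 to 353. Regions held by CDK8KD only and Control only numbered 737 and 475, and 1576 for CDK8KD only when 50% of the region had to be covered, 4261 and 6162 with at least 2 more libraries, 141 and 37 with a −log10 q of at least 5, 202 and 156 with the strongest peaks, and 1061 to 1952 and 809 to 3875 without 1 library, where 2 libraries suffice. The 3875 came without Control replicate 1, which had the fewest peaks of its group. Listed genes higher and lower in all pairs numbered 33 and 11, and 19 and 4 with no replicate block, 20 higher with scaled shares, 19 higher with 2 kb flanks, 21 and 5 with the strongest peaks, 5 lower with a −log10 q of at least 5, and 39 to 40 and 12 to 17 without 1 library. The mean log2 difference in peak number was -0.17 and reversed to 0.14 with a −log10 q of at least 5; without 1 library it ran from -0.22 to -0.14. With the strongest peaks it has no value, since all lists are then equal in number. For total covered length, the mean log2 difference was 0.03 and reversed to -0.035 without Control replicate 1 or CDK8KD replicate 1, and without 1 library it ran from -0.035 to 0.082, and for median width it ran from 0.19 to 0.25. Joining peaks within 1000 bp changed no call count and no difference in peak number or median width. It appears to have joined few or no peaks, and so does not test the calls. Among the 20 named shared regions, 162 values under an alternative lost their call, 61 kept it and 0 reversed, and 116 of those losses came from leaving out a library. The cause of these changes was not tested.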
